A study of Mus musculus with 6 samples.

Results

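The 10 genes described here encode C-type lectin receptors of myeloid cells: the MGL lectins Clec10a and Mgl2, the DCIR group Clec4a1, Clec4a2, Clec4a3 and Clec4a4, and the group of Clec7a (Dectin-1), Clec4n (Dectin-2), Clec4e (Mincle) and Clec4d (MCL). They were taken by symbol from the 55335 genes of a bulk RNA-seq count table, and all 10 were found and passed the filter on low counts that left 14849 tested genes. The RNA came from CD11b+ cells that were sorted by flow cytometry from the spleens of wild-type mice. One group had a myocardial infarction (MI) and the other had a myocardial infarction and renal denervation, the ablation of the nerves of the kidney (MI+RDN), so both groups carried the infarct. Each group had 3 biological replicates, and neither uninjured nor sham-operated mice are among the samples. The labels give no strain, age, sex or time after infarction, and do not say if animals were pooled.

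C-type lectin receptors recognise sugars on microbes and on host glycoproteins. Clec7a signals through a tyrosine motif of its own tail, and Clec4n, Clec4e and Clec4d through the paired Fc receptor gamma chain (Fcer1g). Both routes lead to the kinase Syk and the adaptor Card9, and from there to cytokine genes. In the DCIR group, Clec4a2 (DCIR1) and Clec4a4 (DCIR2) carry an inhibitory tyrosine motif that recruits phosphatases, whereas Clec4a1 (DCIR4) and Clec4a3 (DCIR3) are described as lacking it. The MGL lectins bind galactose and N-acetylgalactosamine and are known from dendritic cells and macrophages.

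The libraries held 21663440 to 28013900 counts. Itgam, which encodes the CD11b of the sort, was high in all 6 libraries, at 1010 to 1300 CPM (counts scaled to equal library sizes with TMM factors) in MI and 1488 to 1665 CPM in MI+RDN. Summed markers of neutrophils were higher in every MI+RDN library (28417 to 51993 CPM) than in every MI library (15689 to 24608 CPM). Summed markers of conventional DC2, the CD11b+ dendritic cells, were lower, at 1362 to 1547 CPM in MI+RDN against 1731 to 1895 CPM in MI. Most markers of some other cells had lower values too. T cell genes were lower in MI+RDN without overlap in 7 of 7 cases (2 passed with edgeR). So were B cell genes in 7 of 8, conventional DC1 genes in 6 of 7 and erythroid genes in 5 of 6. Of all tested genes, 26.2% did not overlap, in either direction. With edgeR or limma-voom, 0 genes of the B cell, DC1 and erythroid lists passed the threshold. The remaining B cell gene, Ighm, had the highest level of its list and a log2 fold change of 0.37. Summed B cell markers thus overlapped, at 5286 to 11682 CPM in MI+RDN and 4220 to 7986 CPM in MI. At an unadjusted p under 0.05 there were 7 B cell, 7 DC1 and 5 erythroid genes, against 19.9% of all tested genes. DESeq2 called 7, 3 and 5 of them, against 7.85% of all tested genes. The part of these cell types in the levels of the lectins was not tested. In bulk RNA, fewer cells of a type and less RNA per cell cannot be told apart.

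Of the 10 lectin genes, only Clec10a passed the test of MI+RDN against MI, with a fall (edgeR quasi-likelihood test, Benjamini-Hochberg adjusted p under 0.05). The share of all tested genes that passed was 1.01%, made up of 0.296% with higher and 0.714% with lower levels in MI+RDN. At an unadjusted p under 0.05 there were 3 lectin genes, Clec10a, Clec4e and Clec4a2, against 19.9% of all tested genes. The groups did not overlap for Clec10a and Clec4e, against 26.2% of all tested genes. The latter 2 shares lay near the background. For the family as a whole, the median log2 fold change of 0.04 stood beside 0.01 for all tested genes. The role groups lay apart in their medians, at -1.07 for the 2 MGL genes, -0.10 for the 4 DCIR genes and 0.34 for the 4 genes of the Dectin and Mincle group. The first of these ranged from -1.43 to -0.73 with 1 library left out. Leaving out MI replicate 3 moved the DCIR median to -0.06 and that of the Dectin and Mincle group to 0.22. The DCIR median became -0.05 when MI+RDN replicate 1 was dropped, and -0.16 when MI+RDN replicate 3 was dropped. With no scaling factors these 2 medians were -0.23 and 0.20.

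**Figure D1:**
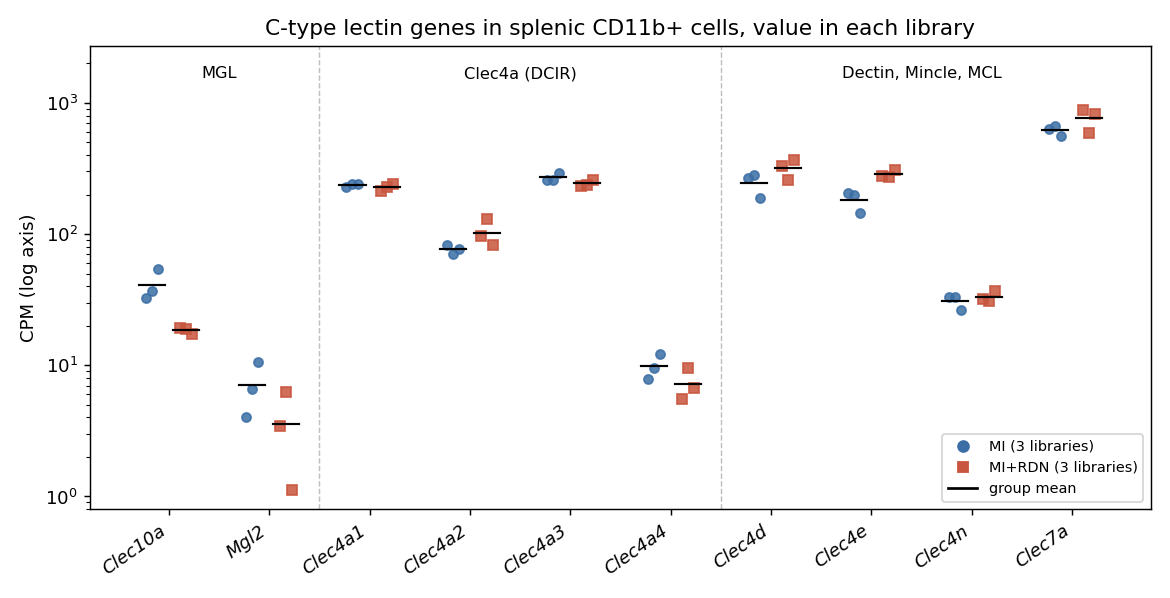
Expression of the 10 lectin genes in each library, in CPM on a log axis, with MI libraries as circles, MI+RDN libraries as squares and the group means as black lines. Clec10a lay between 32.4 and 54.3 CPM in MI and between 17.3 and 19.2 CPM in MI+RDN, and Clec4e was the other gene whose groups did not overlap.

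Clec10a (ENSMUSG00000000318, MGL1 or CD301a), a galactose-type lectin of dendritic cells and macrophages, was lower after denervation. It stood at 32.4, 36.7 and 54.3 CPM in MI replicates 1 to 3 and at 19.2, 18.8 and 17.3 CPM in MI+RDN replicates 1 to 3. Every MI+RDN library lay below every MI library, and the MI+RDN values were much closer together than the MI values. The means were 41.1 ± 11.6 and 18.4 ± 1.02 CPM (SD, n = 3), a 2.23-fold fall of -1.16 on the log2 scale with an SE of 0.190 (edgeR, Benjamini-Hochberg adjusted p = 0.0439). The call ended when any 1 library was left out, where the calls over all genes fell from 150 to between 0 and 67. The unadjusted edgeR p was 0.000301 with all 6 libraries and ran from 0.000156 to 0.00158 with 1 left out. The edgeR adjusted p was then 0.0671, 0.125 and 0.0956 without MI replicates 1, 2 and 3, and 0.135, 0.0671 and 0.0767 without MI+RDN replicates 1, 2 and 3, with log2 fold changes from -1.30 to -0.91. It also ended with the replicate number as a block (edgeR adjusted p = 0.0677), with limma-voom (adjusted p = 0.0531) and without the filter on low counts (edgeR adjusted p = 0.0865). Over all 15 alternatives the adjusted p ran from 2.42e-06, by DESeq2, to 0.135.

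Conventional DC2 markers moved the same way as Clec10a. Of their 7 genes, 2 fell past the threshold (Cd209a, a lectin of the DC-SIGN family, and Zbtb46, a factor that defines conventional dendritic cells), 0 rose, and the median log2 fold change was -0.69. Relative to the mean of these markers within each library, log2 Clec10a was -1.07, -0.88 and -0.83 in MI and -1.16, -1.09 and -1.45 in MI+RDN. On that within-library scale the group difference was -0.30, against an edgeR log2 fold change of -1.16 for Clec10a itself. The groups lay close to each other without overlapping. Log2 fold changes of the 7 markers ranged from -2.15 (Cd209a) to -0.04 (Sirpa), so that scale depends on the markers taken. Markers of splenic macrophages, the other cells known for MGL1, gave a median of -0.59 on the log2 scale over 14 genes, with 12 negative and 2 positive values. Of these, 7 were lower without overlap, against 26.2% of all tested genes in either direction, and 0 passed with edgeR. Their summed levels were 1382 to 1579 CPM in MI and 1115 to 1550 CPM in MI+RDN. That sum includes Slc40a1, which had the highest level of the list and a log2 fold change of 0.27. The part of either cell type in the fall of Clec10a was not tested.

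Mgl2 (ENSMUSG00000040950, MGL2 or CD301b), the close paralog of Clec10a and a marker of a subset of dermal dendritic cells, did not pass. It stood at 4.04, 6.58 and 10.6 CPM in MI and at 3.42, 6.24 and 1.12 CPM in MI+RDN. The groups overlapped, and MI+RDN replicate 3, with 26 counts, lay far under the 89 and 171 counts of the other MI+RDN libraries. Its log2 fold change was -0.97 with an SE of 0.571 (edgeR, Benjamini-Hochberg adjusted p = 0.383). That value was -0.56 without MI replicate 3, -0.57 with MI+RDN replicate 3 dropped and -1.66 with MI+RDN replicate 2 dropped. The 2 genes are uncertain where they share sequence: 10.6% of the 50-base words of the longest coding transcript of Clec10a, and 15.3% of those of Mgl2, occur in transcripts of the other gene, and the labels do not say how reads that fit more than 1 gene were counted.

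The 4 DCIR genes did not move together, and none passed with edgeR, with DESeq2 or with limma-voom, which called 0.748% of all tested genes. At an unadjusted p under 0.05 there was 1, Clec4a2. Their summed level was nearly the same in both groups, at 592 ± 25.6 CPM in MI and 582 ± 30.9 CPM in MI+RDN (SD, n = 3). Clec4a1 (ENSMUSG00000049037) and Clec4a3 (ENSMUSG00000043832), the members without the inhibitory motif, varied least. Clec4a1 stood at 227, 240 and 240 CPM in MI and at 213, 230 and 242 CPM in MI+RDN, a log2 fold change of -0.04 with an SE of 0.0890. Clec4a3 stood at 260, 257 and 293 CPM in MI and at 234, 238 and 261 CPM in MI+RDN, a log2 fold change of -0.15 with an SE of 0.0964 that became -0.08 without MI replicate 3 and -0.29 with no scaling factors. Both groups of values overlapped in each of these genes.

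The members with the inhibitory motif had fold changes of opposite sign. Clec4a2 (ENSMUSG00000030148, DCIR1), an inhibitory receptor of myeloid cells and B cells, stood at 82.4, 70.9 and 77.2 CPM in MI and at 96.1, 130 and 82.2 CPM in MI+RDN. MI+RDN replicate 2 was the highest library, MI+RDN replicate 3 lay within the MI range, and the log2 fold change was 0.42 with an SE of 0.164, which missed the threshold (edgeR, Benjamini-Hochberg adjusted p = 0.210). With MI+RDN replicate 2 dropped it was 0.20. Clec4a4 (ENSMUSG00000059639, DCIR2), which marks a splenic subset of conventional DC2, stood at 7.83, 9.46 and 12.2 CPM in MI and at 5.50, 9.53 and 6.66 CPM in MI+RDN. Here too MI+RDN replicate 2 was the highest of its group, inside the MI range, and the log2 fold change was -0.45 with an SE of 0.252, which missed it too (edgeR, Benjamini-Hochberg adjusted p = 0.367). It was -0.26 without MI replicate 3, -0.28 with MI+RDN replicate 1 dropped and -0.71 with MI+RDN replicate 2 dropped. Set against the mean of the DC2 markers within each library, log2 Clec4a4 was -3.12, -2.84 and -2.98 in MI and -2.96, -2.07 and -2.83 in MI+RDN, and the groups overlapped. Clec4a2 and Clec4a4 share 50-base words as well, 15.7% of those of Clec4a4 and 4.72% of those of Clec4a2, so the lower of the pair is the less certain. Counted over all other annotated genes, 8.19% of the words of Clec4a2 are shared. Clec4a1 and Clec4a3 share 0 such words with other annotated genes.

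Dectin, Mincle and MCL genes had positive fold changes in 4 of 4, and none passed with edgeR or limma-voom. At an unadjusted p under 0.05 there was 1, Clec4e, which DESeq2 also called. Of all tested genes, 51.0% had a positive fold change. Their summed level was 1144, 1178 and 920 CPM in MI and 1524, 1156 and 1540 CPM in MI+RDN, so that MI+RDN replicate 2 lay within the MI range.

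Clec4e (ENSMUSG00000030142), the inducible receptor Mincle for mycobacterial glycolipid and for a nuclear protein released by dying cells, had the largest fold change of these 4. It stood at 205, 200 and 144 CPM in MI and at 278, 273 and 308 CPM in MI+RDN. Every MI+RDN library was higher than every MI library, with MI replicate 3 the lowest. The means were 183 ± 33.5 and 287 ± 18.8 CPM (SD, n = 3), and the log2 fold change of 0.65 (SE 0.143) missed the threshold with edgeR (Benjamini-Hochberg adjusted p = 0.0711). It passed with the DESeq2 Wald test (adjusted p = 0.00154), where 7.85% of all tested genes passed, and the other alternatives gave adjusted p from 0.0572 to 0.173.

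Neutrophil markers moved the same way, with positive fold changes in 12 of 12 genes, 2 of them past the threshold (Ly6g and Retnlg), and a median log2 fold change of 1.0003. Relative to the mean of these markers within each library, log2 Clec4e was -2.54, -2.58 and -2.46 in MI and -2.79, -3.26 and -2.15 in MI+RDN. On that scale the MI libraries lay within 1 narrow band, the MI+RDN libraries lay on both sides of it, and the difference of the means was -0.20. The markers did not rank the MI+RDN libraries alike, so that scale depends on the markers taken. For Ly6C-high monocytes the median over 8 markers was -0.03 on the log2 scale, with 1 higher (Ly6c2). The part of either cell type in the level of Clec4e was not tested.

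Clec4d (ENSMUSG00000030144), the receptor MCL that pairs with Mincle and Dectin-2, stood at 269, 284 and 188 CPM in MI and at 330, 259 and 369 CPM in MI+RDN. Its groups overlapped through MI+RDN replicate 2, and the log2 fold change was 0.37 with an SE of 0.185 (edgeR, Benjamini-Hochberg adjusted p = 0.313). It was 0.21 without MI replicate 3, 0.23 with MI+RDN replicate 3 dropped and 0.24 with no scaling factors. The difference of log2 CPM between Clec4e and Clec4d within a library was -0.39, -0.51 and -0.39 in MI and -0.24, 0.076 and -0.26 in MI+RDN. Clec4e was thus 0.29 higher relative to its partner in MI+RDN on the log2 scale, without overlap of the groups.

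Clec7a (ENSMUSG00000079293), the beta-glucan receptor Dectin-1, stood at 638, 662 and 561 CPM in MI and at 884, 593 and 826 CPM in MI+RDN. MI+RDN replicate 2 lay within the MI range, and the log2 fold change was 0.31 with an SE of 0.164 (edgeR, Benjamini-Hochberg adjusted p = 0.340). It was 0.20 with MI+RDN replicate 1 dropped and 0.17 with no scaling factors. Clec4n (ENSMUSG00000023349), the alpha-mannan receptor Dectin-2, stood at 33.0, 32.9 and 26.3 CPM in MI and at 32.0, 31.0 and 37.0 CPM in MI+RDN. Its groups overlapped, and its log2 fold change of 0.12 (SE 0.126) turned to -0.02 without scaling factors, a setting that moved the median of all genes to -0.13. It was 0.02 without MI replicate 3 and also 0.02 with MI+RDN replicate 3 dropped.

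**Figure D2:**
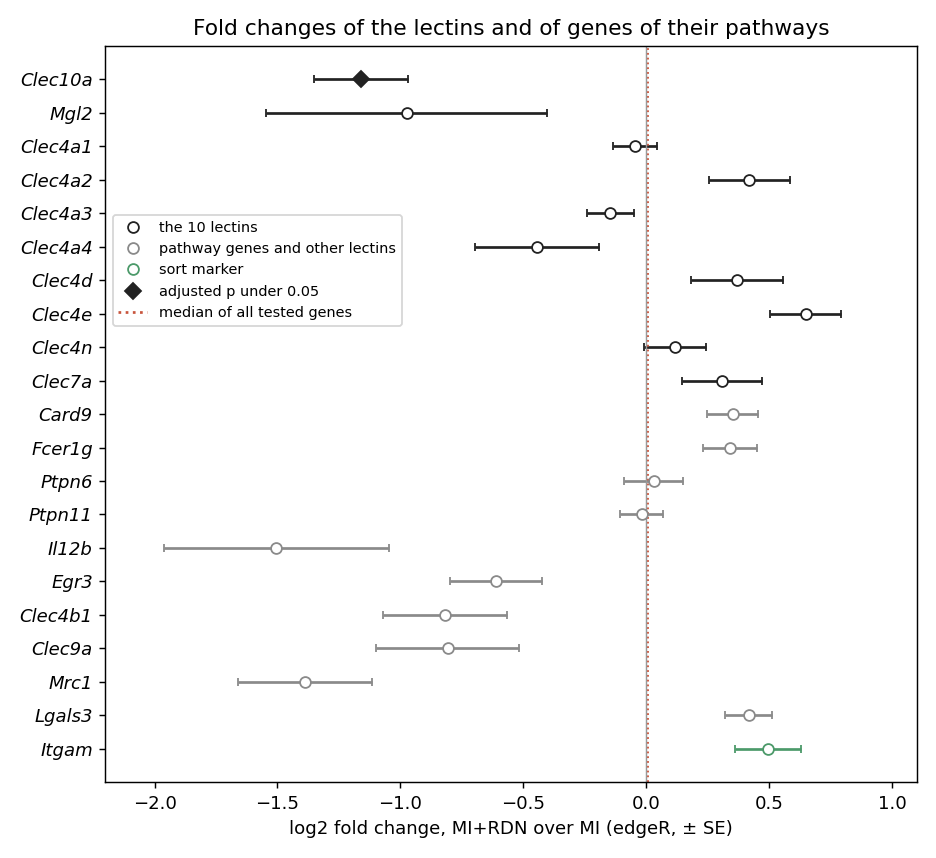
Log2 fold change of MI+RDN over MI with its standard error (edgeR) for the 10 lectin genes, for genes of their pathways and for the sort marker Itgam, with a filled diamond for an adjusted p under 0.05 and a dotted line at the median of all tested genes. Clec10a is the only filled point, Mgl2 lies beside it at -0.97 with an SE of 0.571, and Clec4e lies farthest to the right among the lectins at 0.65.

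The role groups were also set against each other within each library, as differences of mean log2 CPM in which gene length and library size cancel between the groups of mice. The Dectin and Mincle group minus the MGL genes was 4.01, 3.59 and 2.56 in MI and 4.80, 4.13 and 5.79 in MI+RDN. No MI+RDN library overlapped with MI, and the means were 3.39 ± 0.747 and 4.91 ± 0.833 (SD, n = 3). The DCIR group minus the MGL genes was 2.78, 2.37 and 1.91 in MI and 3.14, 3.07 and 4.13 in MI+RDN, again without overlap. As the summed DCIR level was nearly the same in both groups, this difference mostly restates the levels of the MGL genes. No background share was computed for such differences. The Dectin and Mincle group minus the DCIR group was 1.23, 1.22 and 0.65 in MI and 1.66, 1.07 and 1.66 in MI+RDN, where MI+RDN replicate 2 lay within the MI range. Taken one by one, the MGL genes differed in this. The Dectin and Mincle group minus Clec10a alone was 2.51, 2.35 and 1.38 in MI and 3.56, 3.34 and 3.81 in MI+RDN, without overlap. Against Mgl2 alone it was 5.51, 4.83 and 3.73 in MI and 6.04, 4.93 and 7.76 in MI+RDN, with overlap. The DCIR group minus Clec10a alone was 1.28, 1.13 and 0.73 in MI and 1.90, 2.27 and 2.15 in MI+RDN, without overlap. Against Mgl2 alone the DCIR group was 4.28, 3.61 and 3.08 in MI and 4.39, 3.86 and 6.10 in MI+RDN, with overlap.

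Levels of different lectins were compared per kilobase of the longest annotated coding transcript. In MI, Clec7a was highest at 272 ± 23.1 CPM per kilobase, followed by Clec4a3 at 208 ± 15.1, Clec4d at 187 ± 38.8 and Clec4a1 at 151 ± 4.98 (SD, n = 3). Clec4d overlapped with both of its neighbours in this order. Clec4e followed at 72.6 ± 13.3, Clec4a2 at 31.0 ± 2.32 and Clec4n at 25.0 ± 3.11 CPM per kilobase, and none of these 3 overlapped with another. At the low end were Clec10a at 17.6 ± 4.96, Clec4a4 at 12.7 ± 2.88 and Mgl2 at 4.33 ± 2.04 CPM per kilobase, and Clec10a overlapped with Clec4n above it and Clec4a4 below it. In MI+RDN, Clec4d (241 ± 41.9) stood above Clec4a3 (188 ± 11.1), with overlap, and Clec4a4 (9.31 ± 2.67) above Clec10a (7.90 ± 0.437), also with overlap. With the merged length of all exons in place of the longest coding transcript, Clec4e stood at 36.8 CPM per kilobase in MI, and the order of the 10 genes in MI was the same.

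Of the 10 genes, 7 lie in the Dectin-2 cluster of chromosome 6 beside 2 other lectins, in the order Clec4a1, Clec4a3, Clec4a4, Clec4b1, Clec4a2, Clec4b2, Clec4n, Clec4d and Clec4e (RefSeq, GRCm38.p6). Log2 fold changes along this order were -0.04, -0.15, -0.45, -0.82, 0.42, 0.08, 0.12, 0.37 and 0.65. The first 4 genes had negative values and the last 5 had positive values, and none of the 9 passed with edgeR. The values of Clec4a1 (SE 0.0890), Clec4b2 (SE 0.530) and Clec4n (SE 0.126) were smaller in size than their SE. Clec4a1 turned to 0.0073 without MI+RDN replicate 1, and Clec4n to -0.02 with no scaling factors. The split of signs by position is thus not resolved for these genes. At an unadjusted p under 0.05 there were 3 of them, Clec4a2, Clec4b1 and Clec4e, against 19.9% of all tested genes. DESeq2 called Clec4e, against 7.85% of all tested genes. Clec4b1, the neighbour with the lowest value, stood at 3.49, 3.83 and 5.75 CPM in MI and at 2.50, 2.59 and 2.32 CPM in MI+RDN, without overlap (edgeR, Benjamini-Hochberg adjusted p = 0.137).

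**Figure D3:**
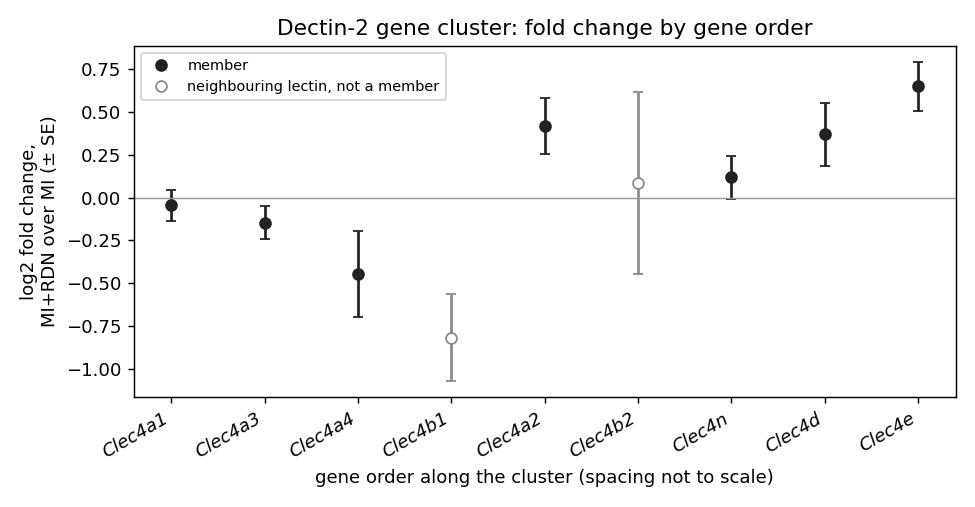
Log2 fold change of MI+RDN over MI with its standard error for the 9 lectin genes of the Dectin-2 cluster, in their order on the chromosome (spacing not to scale), with filled points for the 7 genes described here. Values are below 0 from Clec4a1 to Clec4b1 and above 0 from Clec4a2 to Clec4e, and the SE of Clec4b2 is 0.530. Those of Clec4a1, Clec4b2 and Clec4n are smaller in size than their SE.

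Promoters were available from RefSeq (GRCm38.p6) for 7 of the 10 genes, with 9 start sites, and the 250 bases before each start were searched. Those of Clec4d and Clec4e are shown because these are neighbours whose products pair, and that of Mgl2 as the MGL gene in the table. Capitals mark GAGGAA, a core of sites for the myeloid factor PU.1, or its reverse complement, read 5′ to 3′ on the gene's strand. The intervals are chr6:123289872-123290121 on the minus strand for Clec4e, chr6:123261857-123262106 on the plus strand for Clec4d and chr11:70130107-70130356 on the plus strand for Mgl2.
Clec4e: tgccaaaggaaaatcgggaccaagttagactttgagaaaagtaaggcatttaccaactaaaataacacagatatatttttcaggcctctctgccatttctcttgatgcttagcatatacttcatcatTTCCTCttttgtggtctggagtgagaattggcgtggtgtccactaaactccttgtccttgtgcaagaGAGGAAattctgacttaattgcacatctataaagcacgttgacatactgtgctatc
Clec4d: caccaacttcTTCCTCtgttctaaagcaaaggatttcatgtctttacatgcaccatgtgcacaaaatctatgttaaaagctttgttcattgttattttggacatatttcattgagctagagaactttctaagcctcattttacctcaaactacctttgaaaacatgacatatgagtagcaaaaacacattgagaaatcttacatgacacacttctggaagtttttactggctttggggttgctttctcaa
Mgl2: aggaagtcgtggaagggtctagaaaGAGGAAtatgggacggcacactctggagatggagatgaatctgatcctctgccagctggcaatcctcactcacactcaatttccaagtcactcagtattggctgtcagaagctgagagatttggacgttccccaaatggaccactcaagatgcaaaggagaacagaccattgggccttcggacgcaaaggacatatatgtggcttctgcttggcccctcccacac

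The start sites of Clec4a3 overlap in sequence, as do those of Clec7a, so matches were counted per gene. GAGGAA on either strand occurred in 6 of the 7 genes, or 7 of the 9 start sites. It was present in 23.3% of all 32851 promoters of this length, a share per start site and not per gene. It occurred in genes of all 3 roles, with 2 matches in Clec4e and 1 each in Clec4d and Mgl2. TTNNGNAAT, a C/EBP consensus, occurred in 2 of the 7 genes (Clec4a2 and Clec4d), or 2 of the 9 start sites. Of all promoters of this length, 10.2% held it. A pair of GAAA runs set 2 bases apart, as interferon regulatory factors bind, occurred in 0 of the 7 and in 2.98% of all. The letters of these motifs may overlap, and a match describes the sequence only.

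Signalling genes downstream of the activating lectins did not pass in any of 12 cases with edgeR or limma-voom. At an unadjusted p under 0.05 there were 4 (Bcl10, Card9, Fcer1g and Tyrobp), against 19.9% of all tested genes. DESeq2 called Card9 and Fcer1g, against 7.85% of all tested genes. The same shares apply to the gene lists below. Fold changes were positive in 9 of 12, with a median log2 fold change of 0.14. Card9, the adaptor that links Syk to NF-kB, stood at 192, 186 and 157 CPM in MI and at 231, 235 and 216 CPM in MI+RDN. Its groups did not overlap, and its log2 fold change was 0.35 with an SE of 0.103 (edgeR, Benjamini-Hochberg adjusted p = 0.125), or 0.22 with no scaling factors. Fcer1g, the signalling chain that Clec4e, Clec4d and Clec4n use, stood at 389, 431 and 431 CPM in MI and at 537, 475 and 573 CPM in MI+RDN. These groups did not overlap either, with a log2 fold change of 0.34 and an SE of 0.11 (edgeR, Benjamini-Hochberg adjusted p = 0.148), or 0.20 with no scaling factors.

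The 3 phosphatase genes of the inhibitory route gave 0 calls with edgeR, DESeq2 and limma-voom and 0 at an unadjusted p under 0.05. Ptpn6 (SHP-1) stood at 932 ± 25.0 CPM in MI and 952 ± 105 CPM in MI+RDN, and Ptpn11 (SHP-2) at 98.2 ± 1.91 and 96.9 ± 7.17 CPM (SD, n = 3). Their log2 fold changes of 0.03 and -0.02 changed sign under some settings. Inpp5d (SHIP-1) had a log2 fold change of -0.01.

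Genes known to be induced through Dectin-1 and Mincle were high enough to be tested in 8 of 14 cases, and 0 passed with edgeR or limma-voom, with 2 at an unadjusted p under 0.05. DESeq2 gave an adjusted p for 7 of the 8, not for Il12b, and called 0. Their median log2 fold change was -0.27, with 2 positive and 6 negative values, opposite in sign to that of the receptors. The 2 positive genes were Tnf (0.23) and Il1b (0.19). Summed levels of the list overlapped, at 1173 to 1472 CPM in MI and 1208 to 1708 CPM in MI+RDN. Il12b, a subunit of interleukin 12 and interleukin 23, stood at 2.04, 1.62 and 0.747 CPM in MI and at 0.500, 0.402 and 0.644 CPM in MI+RDN. Its counts were 11 to 15 per MI+RDN library, the groups did not overlap, and the log2 fold change was -1.51 with an SE of 0.459 (edgeR, Benjamini-Hochberg adjusted p = 0.134). Egr3, an early growth response factor downstream of calcium signalling, stood at 7.55 ± 1.16 CPM in MI and 4.94 ± 0.489 CPM in MI+RDN (SD, n = 3), with the same edgeR adjusted p of 0.134. Il6, Il10, Il23a, Cxcl1, Csf2 and Csf3 were too low to be tested, at under 1 CPM in every library.

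Other lectins of these gene clusters were high enough to be tested in 9 of 13 cases, and 0 passed with edgeR, DESeq2 or limma-voom, with 2 at an unadjusted p under 0.05, Clec4b1 and Clec9a. Clec9a, a receptor for dead cells that also marks conventional DC1, stood at 6.38, 5.95 and 11.3 CPM in MI and at 5.35, 3.65 and 4.55 CPM in MI+RDN, without overlap (log2 fold change -0.81, or -0.45 without MI replicate 3, edgeR, Benjamini-Hochberg adjusted p = 0.181). Asgr2 stayed under 1 CPM, and Asgr1, Clec4f and Cd207 had 0 counts in all 6 libraries, where 3 counts in a library would be at most 0.135 CPM. Among 7 further lectin receptors, 0 passed with edgeR or limma-voom, 2 had an unadjusted p under 0.05, and DESeq2, which gave 6 of the 7 an adjusted p, called the same pair, Mrc1 and Lgals3. Mrc1, the mannose receptor of macrophages, stood at 59.1, 58.5 and 92.7 CPM in MI and at 19.0, 24.4 and 37.1 CPM in MI+RDN, with MI replicate 3 highest as for Clec10a (-1.39 on the log2 scale with an SE of 0.272, edgeR adjusted p = 0.0571). It passed with the replicate number as a block (edgeR adjusted p = 0.0381), without scaling factors (0.0338) and with a minimum mean of 5 CPM (0.0480), and over all alternatives its adjusted p ran from 1.50e-05, by DESeq2, to 0.175. Lgals3, galectin-3, stood at 385, 391 and 398 CPM in MI and at 502, 564 and 503 CPM in MI+RDN, without overlap (edgeR, Benjamini-Hochberg adjusted p = 0.0761).

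**Figure D4:**
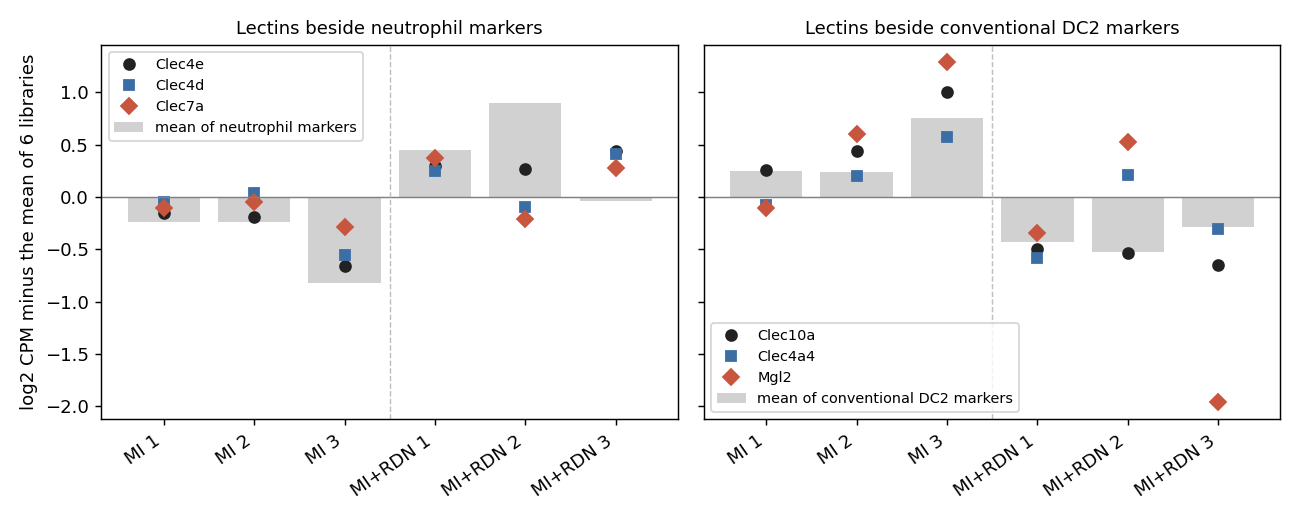
Log2 CPM minus the mean of the 6 libraries for 3 lectins beside the mean of neutrophil markers (left, grey bars) and for 3 others beside the mean of conventional DC2 markers (right, grey bars), for each MI and MI+RDN library. MI replicate 3 is lowest for the mean of neutrophil markers (-0.83) and for Clec4e (-0.66). It is highest for the mean of DC2 markers (0.75) and for Clec10a (0.998). MI+RDN replicate 2 is highest for the mean of neutrophil markers (0.89), though not for Csf3r, Cxcr2 and Mmp9 among them, with Clec7a at -0.21.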

How the data were processed

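The authors deposited 1 table of raw counts per Ensembl gene with a column for each of the 6 libraries. Per the labels' protocols, libraries were strand-specific TruSeq read on a NovaSeq instrument, and the submitters' processing notes name FastQC 0.11.2, STAR and GRCm39. Neither names the counting tool or says how strand and shared reads were handled. Symbols came by Ensembl ID from GENCODE M21 (55154 matched).

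Counts were analysed with edgeR 4.0.16 in R 4.3.3: filterByExpr, TMM factors and the quasi-likelihood F test over 14849 genes, with all 6 libraries and no covariates. CPM use whole library totals times TMM factors. SE was derived from the log2 fold change and its F statistic. The common biological coefficient of variation was 20.7%, and p-values measure only the spread between these libraries. Alternatives used DESeq2 1.42.0, limma 3.58.1 and other scalings, filters and sample sets, and the procedure was tested on simulated data. The exon length alternative was added after seeing the data, as were the ratios of lectins to marker means and of role groups to single MGL genes. Named genes were all lectin members, up to 4 passing genes of each pathway list or else the 2 with the lowest p, and Itgam (further names were chosen after their values were seen). Members and lists were chosen with earlier results of these data known. Protein motifs were planned but not analysed here.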

Additional observations from a re-analysis of the deposited data

How the results depend on the processing

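The count of lectin genes past the threshold was 1. It was 0 without a filter, with limma-voom and with the replicate block, 2 with DESeq2, and 0 to 0 with 1 library left out. Over all genes the count of 150 became 475 with no scaling, 21 without a filter, 290 with a minimum mean of 5 CPM, 1165 with DESeq2, 277 with robust edgeR and 87 with the replicate block, and 0 to 67 with 1 library left out. Leaving out MI replicate 3 or MI+RDN replicate 1 gave 0 calls by edgeR, with 2084 and 2323 genes whose unadjusted p was under 0.05. With no scaling, 62 were higher and 413 lower, against 44 and 106. The causes of these shifts were not tested, beyond the fewer samples or other number of genes that some settings hold. Clec10a was lower in 15 of 15 alternatives and passed in 6, and Clec4e was higher in 15 of 15 and passed in 1. Single genes that did not pass turned sign. With 1 library left out, the log2 fold change ranged from -0.10 to 0.0073 for Clec4a1, from -0.077 to 0.00031 for Ptpn11 and from -0.051 to 0.087 for Ptpn6. With no scaling it was -0.017 for Clec4n and -0.11 for Ptpn6, which stood at -0.00071 with the 5 CPM minimum. The medians of the 3 role groups kept their sign under every alternative run. Deviations of same-numbered libraries correlated at 0.018, -0.065 and 0.064, so the numbers were not taken to pair them, and under the replicate block Clec10a had a log2 fold change of -1.12. Depth limits the low genes, such as Mgl2, Il12b and Mrc2, at 26, 11 and 8 counts in their lowest libraries.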

Other observations

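Within the MI+RDN group, MI+RDN replicate 2 had the highest neutrophil marker mean, 0.89 (log2) above the average of all 6. That mean joins markers that went different ways there. In MI+RDN replicates 1 to 3, Ngp stood at 4780, 11472 and 1384 CPM and Ltf at 3487, 7968 and 1104 CPM. Csf3r stood at 7660, 4359 and 7774 CPM and Cxcr2 at 2060, 1240 and 1924 CPM, lowest in replicate 2. MI+RDN replicate 2 also had the lowest values of its group for Clec4d, Clec4e, Clec4n and Clec7a. The same library was the highest of its group for Mgl2, Clec4a2 and Clec4a4. Relative to neutrophil markers within each library, log2 Clec7a was -0.90, -0.85 and -0.50 in MI and -1.12, -2.14 and -0.73 in MI+RDN, with MI+RDN replicate 2 lowest. Log2 Clec4n on the same scale was -5.18, -5.18 and -4.91 in MI and -5.91, -6.40 and -5.21 in MI+RDN, without overlap. Its own level overlapped between the groups, whereas the marker mean was higher in every MI+RDN library than in every MI library. A gene with an unchanged level would thus also be lower on this scale, which restates the rise of the markers. MI replicate 3 was the lowest of the 6 libraries for all 4 of Clec4d, Clec4e, Clec4n and Clec7a and the highest for Clec10a, Mgl2, Clec4a3 and Clec4a4.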
